A study of Mus musculus with 2 samples.

Results

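Nuclei with transcripts of both Sox6 and Grin2c were described within a single-nucleus RNA-seq dataset of the dopaminergic lineage of the mouse ventral midbrain. A nucleus was a member when it had at least 1 UMI (unique molecular identifier, a tag that marks each captured transcript) of Sox6 and at least 1 UMI of Grin2c, and no UMI of Anxa1, Calb1, Alk, Vcan or Tox. The rule found 740 members among 5928 nuclei with Sox6 and 12065 nuclei kept, those with at least 500 detected genes. The male library held 329 members, 10.6% of its 3110 Sox6 nuclei (exact binomial 95% interval 9.52 to 11.7), and the female library 411 members, 14.6% of its 2818 Sox6 nuclei (13.3 to 15.9). These intervals, and those of all levels below, cover counting error only.

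All nuclei came from adult mice of a single genotype, Dat-IRES-Cre with CAG-Sun1/sfGFP, in which Cre driven by the endogenous dopamine transporter gene activates Sun1 fused to GFP, a nuclear envelope label. GFP+ nuclei were sorted, so the data cover cells that have expressed the transporter at some time in their history, including cells with little of it in the adult. The male library was pooled from 2 mice and the female library from 3 mice, so animals and sexes cannot be told apart from libraries. With the library as block, the p-values rest on how the difference between groups varied between these 2 libraries, with an error shared largely across genes. They do not measure the spread between animals. The members' UMIs summed to 1269137 in the male library and to 1637260 in the female, with a median of 3546 and 3709 UMIs per nucleus. The libraries shared 6 barcodes, none of them among the members.

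Grin2c encodes GluN2C, a subunit of the NMDA-type glutamate receptor. NMDA receptors are assembled from obligatory GluN1 subunits with GluN2 or GluN3 subunits, and the GluN2 subunit sets how long the channel stays open and how strongly magnesium blocks it; receptors with GluN2C are only weakly blocked by magnesium and pass small currents. The gene is best known from cerebellar granule cells and astrocytes, whereas Sox6, a transcription factor, marks dopamine neurons of the substantia nigra pars compacta, many of them in its ventral tier, and Calb1 marks dorsal tier and ventral tegmental neurons.

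The members were chosen by their counts of these 7 genes, whose values are given as a description. Grin2c was present with 1 UMI in 248 of the male and 256 of the female members and with 2 or more UMIs in 81 and 155, the highest count being 5 and 6. The median Sox6 count was 2 UMIs in the male and 3 UMIs in the female members. Close to the limit of the rule on the inside were 87 male and 66 female members with a single UMI of each gene. Just outside it were 131 male and 188 female nuclei with Sox6, Grin2c and a single UMI of an excluded gene. Of all Sox6 nuclei with Grin2c, 289 male and 517 female nuclei were excluded, most of them, 253 and 476, for Alk, Vcan or Tox.

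Over all Sox6 nuclei, Grin2c transcripts were more abundant in the female library. Its level was 64.0 CPM (UMIs of a gene per 1000000 UMIs of the same nuclei; 95% Poisson interval 59.6 to 68.6) in the male and 117 CPM (111 to 123) in the female library, and 19.9% and 32.9% of Sox6 nuclei had at least 1 UMI. With a single library of each sex this difference has no replicate and was not tested. In nuclei without Sox6 the level was 20.9 and 33.5 CPM, and 4.90% and 7.47% of them had a UMI, at a lower median depth of 2280.5 and 2437 UMIs. In both libraries the level was thus higher in Sox6 nuclei, and in Sox6 nuclei with Calb1 it was 31.1 and 61.1 CPM. Sox6 nuclei with Anxa1, the marker of a ventral tier subtype, had 52.3 and 131 CPM of Grin2c, and those with Alk, Vcan or Tox and no Anxa1 had 45.7 and 90.3 CPM. These 2 groups fell within 1.5-fold of each other in each library.

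The members carried the transcripts that define dopamine neurons. Th, the rate-limiting enzyme of dopamine synthesis, was at 361 CPM in male and 437 CPM in female members, against 343 and 422 CPM in remaining Sox6 nuclei, 2 for each member, matched for depth within each library. A UMI of Th was found in 72.9% and 78.1% of the members, and 0 of 329 male and 1 of 411 female members had no UMI of Th, Slc6a3, Ddc and Slc18a2. Slc18a2, the vesicular monoamine transporter, differed between the libraries more than between the groups, with 464 CPM in male and 1148 CPM in female members against 466 and 1155 CPM in the matched nuclei (log2 fold change -0.01 ± 0.05). Pitx3, En1, Nr4a2 and Foxa2, transcription factors of midbrain dopamine neurons, did not pass the test between members and matched nuclei either (edgeR adjusted p 0.518 to 0.98).

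Aldh1a1, an aldehyde dehydrogenase of ventral tier neurons that had been proposed as a marker of these nuclei beside Sox6 and Grin2c, did not pass the test against the pooled remaining Sox6 nuclei. It was at 224 CPM in male and 226 CPM in female members, against 215 and 264 CPM in the matched remaining nuclei (log2 fold change -0.10 ± 0.08, SE, edgeR adjusted p = 0.676). A UMI of Aldh1a1 was found in 39.8% (34.5 to 45.3) and 39.7% (34.9 to 44.6) of the members and, after thinning each nucleus to 1000 UMIs, in 17.9% in each library. As a background, 4.85% and 5.36% of GABAergic nuclei without Th and Slc6a3 had a UMI, at a median depth of 2259 and 1800.5 UMIs. Against Sox6 nuclei without Grin2c it passed as higher (0.43) and against those with Anxa1 as lower (-1.10) in the members. Among all Sox6 nuclei, those with both Aldh1a1 and Grin2c were 1.17 (1.04 to 1.31) and 1.11 (1.01 to 1.21) times the number given by their separate frequencies at equal depth, and 1.17 (0.83 to 1.59) and 1.30 (1.03 to 1.61) times after thinning. The members are called Sox6 nuclei with Grin2c here, after the rule.

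Cell types in which Grin2c is otherwise known left few transcripts in the members. Of 12 astrocyte markers, 7 were detected in male and 4 in female members, with a summed level of 119 and 108 CPM, lower than the 158 and 150 CPM of the matched nuclei. Nearly all of it was Slc1a2, a glutamate transporter, at 94.6 and 102 CPM (log2 fold change -0.51 ± 0.10, passing the test), and Aqp4, Gfap, Sox9, Fgfr3 and Ntsr2 were at 0 in both libraries, where 3 UMIs would be 2.36 and 1.83 CPM. Of 6 markers of cerebellar granule cells, Gabra6, Cbln3, Zic2 and Neurod1 were at 0 in both, and the summed level of 7.88 and 11.6 CPM came almost wholly from Etv1. The 9 oligodendrocyte markers reported here summed to 59.9 and 23.2 CPM, led by St18, against 61.4 and 29.6 CPM in the matched nuclei, and endothelial markers to 55.9 and 58.0 CPM against 50.03 and 53.8 CPM, led by Bsg. The 7 microglial markers reported here summed to 3.15 and 10.4 CPM against 4.73 and 10.1 CPM, led by Cx3cr1 and P2ry12, with C1qa, C1qb and Tmem119 at 0. Markers of oligodendrocyte precursors were at 0 and 1.22 CPM, and GABAergic and glutamatergic markers at no more than 4.73 CPM in sum.

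The main comparison asked how the other genes of the members differed from those of the remaining Sox6 nuclei of the same library and depth. Counts were summed per group and library and tested with edgeR with the library as block, without the 7 genes of the rule. Of 11188 genes tested, 469 passed at an adjusted p below 0.05, which is 4.19%; 173 (1.55%) were higher and 296 (2.65%) lower in the members. All 469 had the same direction in both libraries, as did 56.4% of all genes tested. The median log2 fold change of all genes was 0.00. With 2 sums per group the fit takes its error mostly from the spread shared by all genes, and DESeq2, which called 98 genes, called 23 of the 83 genes that the naming rule took from this comparison.

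A large difference lay within the NMDA receptor itself: the members had less Grin2a, the gene of the GluN2A subunit. Grin2a was at 303 CPM in male and 291 CPM in female members and at 704 and 655 CPM in the matched remaining nuclei, so that both member values lay far below both values of the matched nuclei. The log2 fold change was -1.19 ± 0.06 (SE, n = 2 libraries, edgeR adjusted p = 3.26e-80), and DESeq2 called it too. Fewer members had a UMI of it, 38.9% and 38.4% against 64.6% and 64.0%, and 20.4% and 17.9% against 39.2% and 36.2% after thinning to 1000 UMIs. Of the 6 tested NMDA receptor genes, Grin2a and Grin3a were lower and none was higher, beside 4.19% called among all genes, with a list median of -0.13. Grin3a, which encodes a glycine-binding subunit, was at 32.3 and 22.6 CPM against 52.4 and 60.8 CPM (log2 fold change -1.09 ± 0.17). Grin1, the obligatory subunit, was at 213 and 202 CPM against 243 and 221 CPM and did not pass (-0.16 ± 0.08), nor did Grin2b, at 604 and 603 CPM against 658 and 632 CPM (-0.09 ± 0.05). These 2 genes were named after their values were seen. Against Sox6 nuclei with Anxa1 none of the 6 genes passed, Grin3a being at -0.33 ± 0.30, where 2.47% of all genes were called.

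The level of Grin2a was lower in nuclei with more Grin2c UMIs. Among Sox6 nuclei with the same 5 genes excluded, its level in the male library was 764 CPM (735 to 794) in the 1099 nuclei without Grin2c, 348 CPM (311 to 388) with 1 Grin2c UMI and 183 CPM (141 to 235) with 2 or more. In the female library it was 740 CPM (704 to 777) in 674 nuclei, 364 CPM (326 to 404) and 194 CPM (162 to 229). The classes are set by a gene of the rule and were not tested, and the intervals cover counting error within 1 library only. The order was the same in both libraries, and the classes differed in median depth, from 2732 to 3603 UMIs in the male and from 2857.5 to 4079 UMIs in the female library. Tenm2, a teneurin adhesion gene, followed the same order, from 2440 to 1988 and 1356 CPM in the male and from 2353 to 2016 and 1648 CPM in the female library. Th showed no such order, with 342, 360 and 364 CPM in the male and 461, 432 and 445 CPM in the female library.

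**Figure D1:**
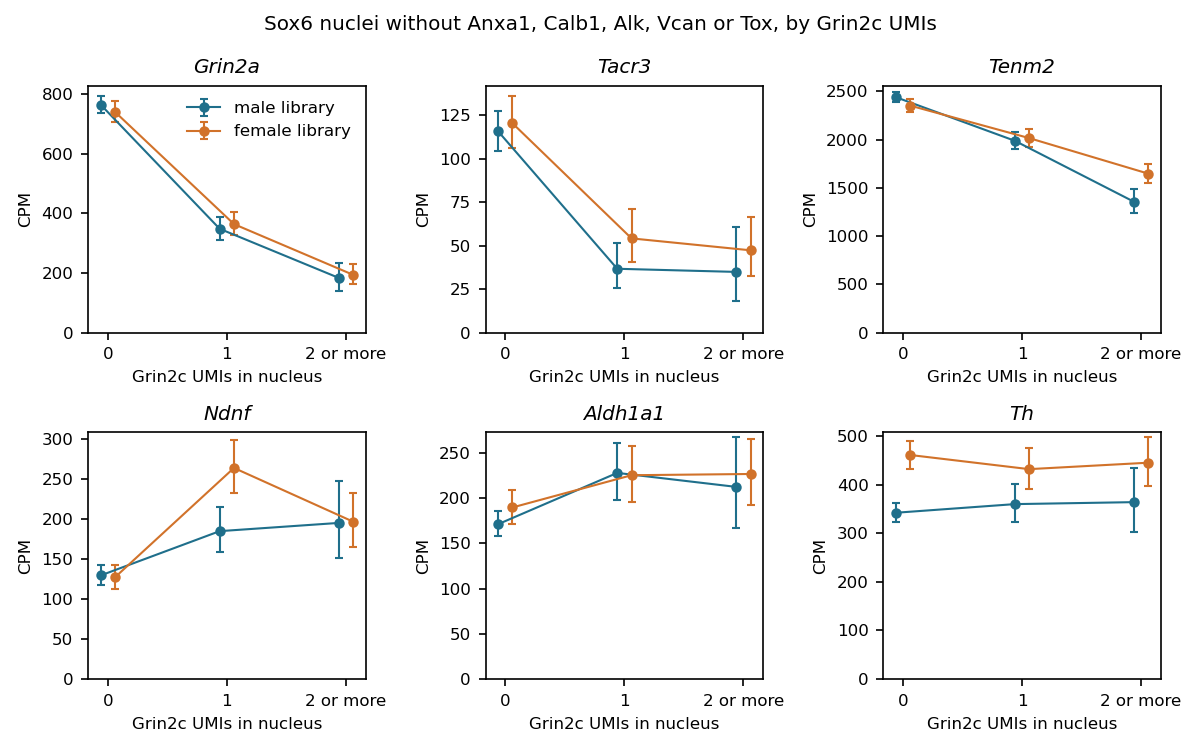
Level in CPM (y axis) of 6 genes in Sox6 nuclei without Anxa1, Calb1, Alk, Vcan and Tox, by the number of Grin2c UMIs in the nucleus (x axis), with points for the male and female library and bars for 95% Poisson intervals of the summed counts. Grin2a was at 764 and 740 CPM without Grin2c and at 183 and 194 CPM with 2 or more UMIs, Tacr3 was lower and Ndnf higher wherever Grin2c was present, and Th stayed between 342 and 461 CPM.

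The same data can be given as counts of nuclei, which is a description with no test and no separate evidence. Among all Sox6 nuclei, 294 male and 456 female nuclei had both Grin2c and Grin2a, which was 0.71 (0.63 to 0.79) and 0.74 (0.68 to 0.81) times the number given by their separate frequencies within 10 equal classes of depth. After thinning each nucleus to 1000 UMIs the ratio was 0.45 and 0.53. For Grin2b this ratio was 1.00 (0.92 to 1.08) and 0.98 (0.91 to 1.05). The excluded genes belong to the rule, and their ratios with Grin2c are a description with no test: 0.64 and 0.56 for Calb1, 0.61 and 0.73 for Tox and 0.96 and 1.22 for Anxa1. After thinning they were 0.34 and 0.34 for Calb1, 0.62 and 0.80 for Tox and 0.86 and 0.82 for Anxa1. Grin2c lies on chromosome 11 (115249169 to 115267243, minus strand, mm10) and Fdxr, the gene of ferredoxin reductase, ends 780 bases upstream of its start on the same strand. Fdxr was at 106 and 114 CPM in the members against 92.6 and 82.8 CPM (log2 fold change 0.34 ± 0.11, passing the test). Without every nucleus with a Fdxr UMI, which left 225 male and 259 female members, the log2 fold change of Grin2a was -1.15; this alternative was added after the data were seen.

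Most metabotropic and delta glutamate receptor genes reported here were lower in the members, 5 of 6 tested, beside 4.19% called among all genes. The list median was at -0.33, and the remaining gene did not pass. Lower were Grm8 (42.5 and 27.5 CPM against 78.0 and 48.0 CPM) and Grm3 (9.46 and 9.16 CPM against 20.9 and 16.8 CPM), both genes of receptors that inhibit adenylyl cyclase, with log2 fold changes of -0.84 ± 0.16 and -0.996 ± 0.29. Grm5 and Grid1 were lower by less, at -0.21 ± 0.05 and -0.28 ± 0.06. For Grm7 the libraries differed in size: it was at 297 CPM against 479 CPM in the male library but at 344 CPM against 369 CPM in the female. DESeq2 called none of these 5 genes. Against Grin2c-negative Sox6 nuclei with the same exclusions 2 of 6, Grm7 and Grm8, were lower, where 3.31% of all genes were called, and against Sox6 nuclei with Anxa1 1 of 5, Grm5, where 2.47% were.

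Of 9 tested AMPA and kainate receptor genes, 4 were lower and 1 higher, with a median of -0.21, beside 4.19% called among all genes. DESeq2 called 1 of them, Gria1. Gria1, an AMPA receptor subunit gene, was at 400 and 348 CPM in the members against 535 and 479 CPM (log2 fold change -0.44 ± 0.06), Gria3 changed by -0.22 ± 0.06, and the kainate receptor genes Grik1 and Grik2 by -0.43 ± 0.06 and -0.40 ± 0.08. Grik3, the gene that was higher, had 466 and 442 CPM against 448 and 351 CPM. Its log2 fold change of 0.20 ± 0.06 came mostly from the female library. Compared with Grin2c-negative nuclei under the same exclusions, 3 genes were lower, Gria1, Gria3 and Grik2, and 1 higher, Gria2, with a median of 0.04. Grik1 (0.19 ± 0.06) and Grik3 (0.07 ± 0.06) did not pass there, where 3.31% of all genes were called. Against Sox6 nuclei with Anxa1, where 2.47% were called, Gria1 and Grik1 were lower and Grik3 higher. Gria3 (0.003 ± 0.08) and Grik2 (-0.04 ± 0.11) did not pass.

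**Figure D2:**
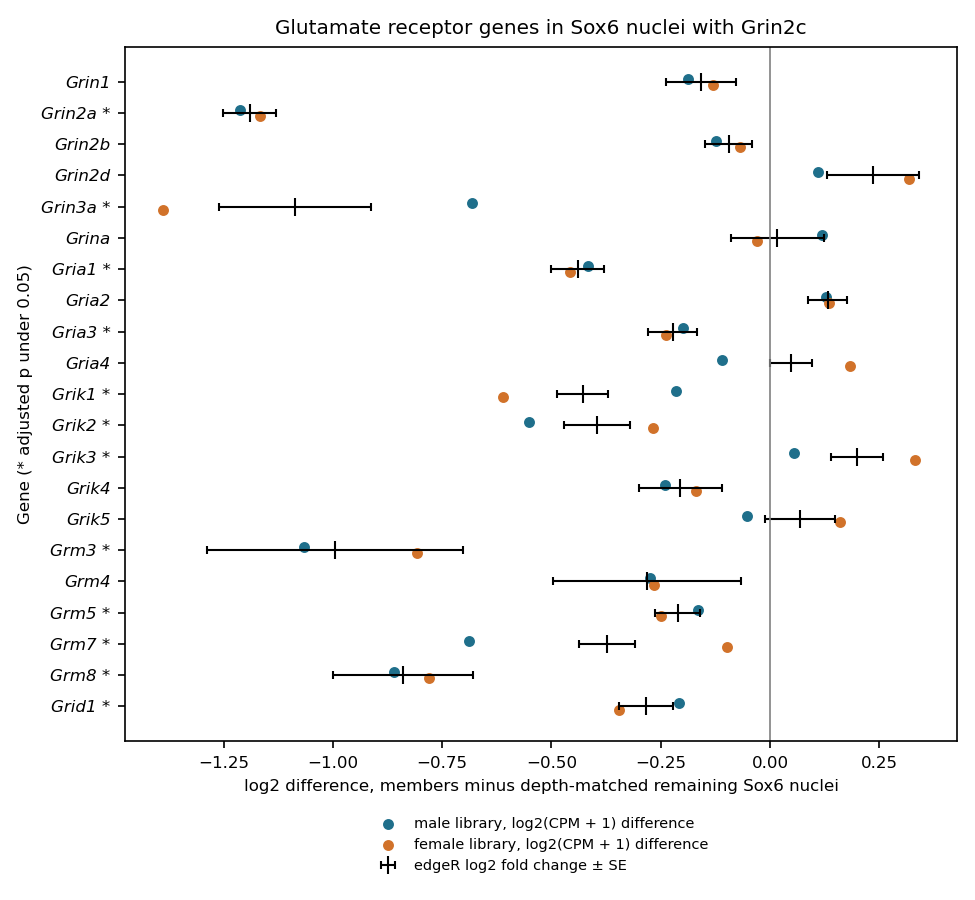
Log2 difference (x axis) between members and depth-matched remaining Sox6 nuclei for 21 tested glutamate receptor genes (y axis), with coloured points for each library, black bars for the edgeR log2 fold change ± SE and asterisks for adjusted p below 0.05. Grin2a at -1.19 has both libraries close together, whereas the libraries lie apart for Grm7 and Grin3a.

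Receptors of inhibitory and cholinergic input were lower or did not pass. Of 11 tested GABA receptor genes 3 were lower and none higher, with a median of -0.19, beside 4.19% called among all genes. Gabrg3, a gamma subunit gene of the GABA-A receptor, was at 84.3 CPM in male and 77.6 CPM in female members against 228 and 220 CPM, a log2 fold change of -1.47 ± 0.10 that DESeq2 also called. Gabra2 changed by -1.03 ± 0.18 and Gabrb1 by -0.21 ± 0.06. Neither passed against Grin2c-negative nuclei with the same exclusions (-0.32 ± 0.23 and -0.12 ± 0.06). Lower there were 3 of 12 tested genes, Gabra3, Gabrb2 and Gabrg3, where 3.31% of all genes were called. Of 7 nicotinic acetylcholine receptor genes, Chrna7 was at 15.0 and 13.4 CPM against 28.0 and 37.6 CPM (log2 fold change -1.24 ± 0.23) and Chrna6, a subunit gene typical of dopamine neurons, at 49.6 and 45.8 CPM against 67.4 and 79.1 CPM (-0.64 ± 0.14), with a list median of -0.05.

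The 10 highest and 10 lowest fold changes among called genes with at least 20 CPM in a group were mostly those of genes of modest level. Highest was the predicted gene Gm11639, at 71.7 CPM in male and 51.9 CPM in female members against 29.2 and 21.1 CPM (log2 fold change 1.30 ± 0.17). It was followed by Adamts18, an extracellular metalloprotease gene, the rhomboid family gene Rhbdl3, the ubiquitin ligase gene March3, the netrin-G gene Ntng2 and Ptchd4, at 1.24 to 1.10. Ptchd4 was the most abundant of them, with 139 and 120 CPM against 70.9 and 51.0 CPM. Stac2, whose product binds voltage-gated calcium channels, Emc8, the sialyltransferase gene St3gal4 and Trim68 completed the group, at 1.08 to 0.96. In each of these 10 genes both member values were above both values of the matched nuclei. Against Sox6 nuclei with Anxa1, Gm11639, Adamts18, March3 and St3gal4 were higher, and the others, among them Ptchd4 (0.52 ± 0.21), did not pass. Emc8 and Trim68 did not pass against Grin2c-negative nuclei with the same exclusions.

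Lowest was Tmem163, the gene of a zinc transporter of vesicles, with 7.88 CPM in male and 7.33 CPM in female members against 29.2 and 28.4 CPM (log2 fold change -1.92 ± 0.28). Adam12, a metalloprotease gene, Sytl5, whose product binds Rab proteins, and Ptprt, a receptor tyrosine phosphatase gene, were at -1.77, -1.71 and -1.70. Lmx1a, a transcription factor needed for the development of midbrain dopamine neurons, was at 18.9 and 18.3 CPM against 45.7 and 60.5 CPM (-1.54 ± 0.19). The predicted gene Gm20754, the phosphodiesterase gene Pde11a, the semaphorin gene Sema5a, the syntrophin gene Sntb1 and Kcnmb2, a BK channel subunit gene, lay between -1.57 and -1.51. Of these 20 genes DESeq2 called Gm11639, Ptchd4, St3gal4 and Lmx1a. Against Sox6 nuclei with Anxa1, Ptprt (-1.90 ± 0.38) alone of the lowest genes passed, and Adam12 was not tested. Lmx1a was at -0.81 ± 0.34 there. Among abundant genes outside the rule, 2 were chosen after their values were seen. Hs6st3, a heparan sulfate sulfotransferase gene, was at 1838 and 1609 CPM against 1030 and 990 CPM (0.77 ± 0.04). Il1rapl2, an adhesion gene of the interleukin-1 receptor family, was at 373 and 345 CPM against 758 and 931 CPM (-1.25 ± 0.06). Set against Anxa1 nuclei, Hs6st3 was at -0.20 ± 0.06 and did not pass, whereas Il1rapl2 was lower there too (-0.73 ± 0.10).

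**Figure D3:**
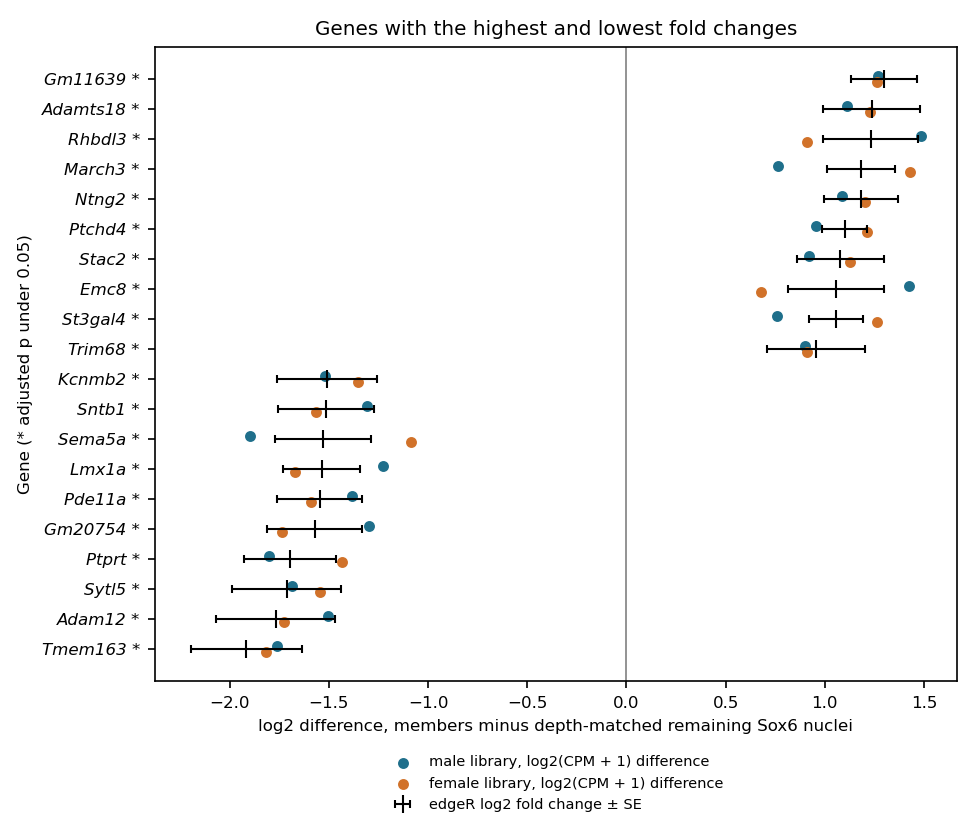
Log2 difference (x axis) between members and depth-matched remaining Sox6 nuclei for the 10 genes with the highest and the 10 with the lowest fold changes (y axis), with coloured points for each library and black bars for the edgeR log2 fold change ± SE. The higher genes span 1.30 to 0.96 and the lower genes -1.51 to -1.92. Both libraries lie on the same side of 0 throughout, which the naming rule required.

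Genes known from subtypes of ventral nigral neurons did not move together. Of 15 tested, 4 were higher and 5 lower, with a median of -0.05, beside 4.19% called among all genes. Ndnf, a secreted neurotrophic factor gene, rose most, from 113 and 120 CPM in the matched nuclei to 188 and 235 CPM in the members (log2 fold change 0.87 ± 0.09). Its share of members with a UMI was 46.5% and 51.3% against 27.1% and 31.3%. Kcns3, a modifier of Kv2 potassium channels, was at 0.55 ± 0.08, and the synaptic adhesion gene Clstn2 and the vesicle gene Rab3c at 0.37 ± 0.04 and 0.30 ± 0.05. On the lower side, beside Tmem163, was Tacr3, the gene of the neurokinin B receptor, at 36.2 and 51.3 CPM against 93.0 and 84.0 CPM (-0.98 ± 0.14). The proprotein convertase gene Pcsk6, the secreted protein gene Tafa1 and Tmem132d were at -1.23 ± 0.25, -0.72 ± 0.09 and -1.11 ± 0.19. Against Sox6 nuclei with Anxa1, Tacr3 (-0.16 ± 0.23), Tmem163 (-1.67 ± 0.47), Pcsk6 (-0.78 ± 0.43) and Tmem132d (-0.92 ± 0.28) did not pass, and Tafa1 was lower. Ndnf, Kcns3 and Clstn2 were higher there too, and Rab3c (0.27 ± 0.07) did not pass.

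Of 20 genes of Calb1 and ventral tegmental subtypes only 9 were abundant enough to test. Ebf2, a transcription factor, was lower, at 4.73 and 1.83 CPM against 16.5 and 17.4 CPM, and Cdh13, a cadherin gene, was higher, at 789 and 789 CPM against 687 and 585 CPM. These calls stand beside 4.19% called among all genes, and the list median was -0.08. Transcripts of Otx2, a ventral tegmental transcription factor, were found in 0 of 329 male members, which allows a share of nuclei with a UMI of up to 0.912% at this depth and sets no limit on nuclei that express the gene, and in 2 of 411 female members. Slc17a6, the vesicular glutamate transporter VGLUT2, had a UMI in 4 and 3 members.

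Of 15 tested genes of the dopamine system, 2 were higher and 1 lower, beside 4.19% called among all genes. Slc6a3, the dopamine transporter, was at 649 and 820 CPM in the members against 550 and 723 CPM (log2 fold change 0.21 ± 0.05) and Drd2, the autoreceptor, at 427 and 454 CPM against 365 and 337 CPM (0.33 ± 0.06). DESeq2 called neither, and Slc6a3 did not pass against Grin2c-negative nuclei with the same exclusions or against Anxa1 nuclei, at 0.13 in each. Gfra1, the receptor gene for the neurotrophic factor GDNF, was lower, at 178 and 174 CPM against 275 and 348 CPM (-0.84 ± 0.08). The other 12 genes of this list did not pass, and its median was 0.06. Of 13 identity transcription factors, Lmx1a and Ebf3 were lower, Ebf3 at 121 and 115 CPM against 158 and 190 CPM (-0.58 ± 0.10), and none was higher, with a median of 0.03.

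Among channels of pacemaking reported here, 3 of 29 tested genes were higher and 9 lower, with a median of -0.06, beside 4.19% called among all genes. Increases of at most 0.27 were seen for Cacna1d, the L-type calcium channel Cav1.3, Kcnq3 and the sodium channel gene Scn8a. The lower genes included potassium channel subunits and their binding proteins. Kcnip4, a partner of Kv4 channels, was at 4125 and 3809 CPM against 4968 and 5148 CPM (-0.35 ± 0.03), and Kcnip1 was at -0.91 ± 0.20, while Kcnip3 did not pass (-0.08 ± 0.12). The Kv4 genes Kcnd2 and Kcnd3 were at -0.22 ± 0.06 and -0.14 ± 0.04, and neither passed against Anxa1 nuclei (0.18 ± 0.09 and -0.15 ± 0.06). Fgf14 and Fgf13, whose products bind sodium channels, changed by -0.40 ± 0.04 and -0.36 ± 0.08. Kcnq5, the SK channel gene Kcnn2 and the L-type channel gene Cacna1c were at -0.60 ± 0.11, -0.49 ± 0.11 and -0.24 ± 0.06. Against Grin2c-negative nuclei with the same exclusions, where 3.31% of all genes were called, 1 of the 29 genes was higher, Kcnq3. Lower there were 4, Kcnip1, Kcnip4, Kcnq5 and Fgf14. The other channel genes named here did not pass, Fgf13 being at -0.05. Of 19 genes of calcium binding and release, the intracellular release channels Ryr3 and Itpr1 were higher, at 0.41 ± 0.05 and 0.39 ± 0.08, and Hpcal1, Camk2a and Ncald lower, at -1.43 ± 0.33, -0.56 ± 0.15 and -0.40 ± 0.12. Of these, Ryr3, Hpcal1 and Ncald did not pass against Grin2c-negative nuclei with the same exclusions.

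Of the 27 adhesion and guidance genes reported here 14 were called, 4 higher and 10 lower, beside 4.19% called among all genes. The list median was at -0.19. Tenm2 was at 1817 CPM in male and 1859 CPM in female members against 3290 and 3680 CPM (log2 fold change -0.92 ± 0.04), and Ntng1, a netrin-G gene, at 220 and 244 CPM against 427 and 535 CPM (-1.06 ± 0.07). Both are genes of synaptic partners, and both were also called by DESeq2. Compared with Grin2c-negative nuclei under the same exclusions, Tenm2 was at -0.25 ± 0.03, and Ntng1, at -0.09 ± 0.08, was not called. Tenm3, Tenm4 and Cntnap5b were at -0.61, -0.88 and -0.81, and the guidance receptor genes Unc5d, Unc5c and Dcc at -0.70, -0.25 and -0.23. Slit2 and Cntnap5a were at -0.44 and -0.32. The higher genes were the contactins Cntn5 and Cntn4 (0.38 ± 0.04 and 0.32 ± 0.04), Lrrtm4 (0.30 ± 0.04) and the ephrin receptor gene Epha5 (0.15 ± 0.04). Beside Ntng1, Tenm3 (-0.33 ± 0.12) did not pass against Grin2c-negative nuclei with the same exclusions, while the other genes named here did. The sign turned against Anxa1 nuclei for Unc5d (0.36), Epha5 (-0.11), Cntn4 (-0.01) and Cntn5 (-0.08), none of them passing, and for Lrrtm4 (-0.22), which passed.

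None of 14 genes of inherited Parkinson disease passed the edgeR test, with a median of 0.03, nor did any of the 5 immediate early genes abundant enough to test, with a median of 0.00. In each list 1 gene had an unadjusted p below 0.05, and DESeq2 called 0. With 4.19% of all genes called, lists of this size would hold few or no calls, so nothing is read from these counts. The 5 genes of the sex chromosomes followed the labels, with Xist at 0 UMIs in the male and 507 UMIs in the female members and Uty at 139 and 0 UMIs.

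A second comparison held the exclusions of the rule constant and differed only in Grin2c: the members were set against Sox6 nuclei without a Grin2c UMI that also lacked Anxa1, Calb1, Alk, Vcan and Tox. Too few such nuclei of matching depth were present in the female library, so 327 male and 330 female members were compared with 653 and 588 nuclei, with a median depth of 3307.5 against 3072.5 UMIs in the female library. Of 10541 genes 349 passed (3.31%), 136 (1.29%) higher and 213 (2.02%) lower. Grin2a was at 304 and 305 CPM in the members against 768 and 751 CPM (log2 fold change -1.31 ± 0.06). Aldh1a1 and Lmo3 were now higher in the members, Aldh1a1 at 228 and 243 CPM against 166 and 186 CPM (0.43 ± 0.09) and Lmo3, a transcriptional cofactor of ventral tier neurons, at 411 and 357 CPM against 294 and 264 CPM (0.47 ± 0.07). Ndnf was higher by 0.68 ± 0.10. Tacr3 was lower, with 35.4 and 59.1 CPM against 126 and 124 CPM (-1.41 ± 0.15), as was Unc5d, with 85.2 and 68.4 CPM against 165 and 213 CPM (-1.28 ± 0.12). Grm7 was at -0.63 ± 0.06, with both libraries apart from the matched nuclei here. Tenm2 was at -0.25 ± 0.03, and Ntng1, at -0.09 ± 0.08, was not called. Fdxr did not pass (0.25 ± 0.12). Of the 83 genes named from the first comparison 25 did not pass here, among them Grin3a (-0.55 ± 0.22), Gabra2 (-0.32 ± 0.23), Chrna6 (-0.26 ± 0.17), Kcnmb2 (-0.72 ± 0.31) and Emc8 (0.28 ± 0.25). Grik1, at -0.43 in the first comparison, was at 0.19 ± 0.06 here and was not called. Grin1, which did not pass in the first comparison, was lower here (-0.30 ± 0.08, edgeR adjusted p = 0.0131). The comparisons share the members, so their values stand side by side and the differences between them were not tested.

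Against Sox6 nuclei with Anxa1 the members had less Aldh1a1, Tafa1, Lmo3 and Tenm2 and more Ndnf, and Grin2a did not pass the test. With 161 male and 168 female nuclei on each side, 197 of 7983 genes passed (2.47%), 92 (1.15%) higher and 105 (1.32%) lower. Aldh1a1 was at 194 and 225 CPM in the matched members against 433 and 469 CPM in the Anxa1 nuclei (log2 fold change -1.10 ± 0.10). Tafa1 was at 134 and 116 CPM against 440 and 357 CPM (-1.66 ± 0.12), Lmo3 at 384 and 348 CPM against 831 and 784 CPM (-1.14 ± 0.08) and Tenm2 at 1828 and 1991 CPM against 5435 and 5179 CPM (-1.47 ± 0.05). Higher in the members were Ndnf, at 199 and 238 CPM against 100.0 and 111 CPM (1.05 ± 0.14), and Ryr3 (0.79 ± 0.08). Grin2a was at 321 and 331 CPM against 403 and 330 CPM, a log2 fold change of -0.16 ± 0.10 that did not pass (edgeR adjusted p = 0.644). Of the named genes 80 could be tested here, and 47 did not pass. Lrrtm4, higher in the first comparison, was lower here (-0.22 ± 0.05).

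Against Sox6 nuclei with Alk, Vcan or Tox and no Anxa1, 475 of 10208 genes passed (4.65%), 173 (1.69%) higher and 302 (2.96%) lower. The count was 298 with library size alone in place of TMM, 153 without the filter on low counts, 104 with DESeq2 and 59 without the library as block. Here Grin2a was at -1.20, Tenm2 at -1.11, Ntng1 at -1.35, Gabrg3 at -1.53 and Ndnf at 1.04, and Aldh1a1 at -0.15 and Lmo3 at -0.02 were not called. In all kept nuclei of a group, unmatched, the order of Grin2a was the same in both libraries: members, then Anxa1 nuclei (449 and 403 CPM), nuclei with Alk, Vcan or Tox (751 and 728 CPM) and nuclei without Grin2c under the same exclusions (764 and 740 CPM), whose intervals overlap with the former, then Sox6 nuclei with Calb1 (928 and 1024 CPM) and nuclei without Sox6 (1215 and 1244 CPM).

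**Figure D4:**
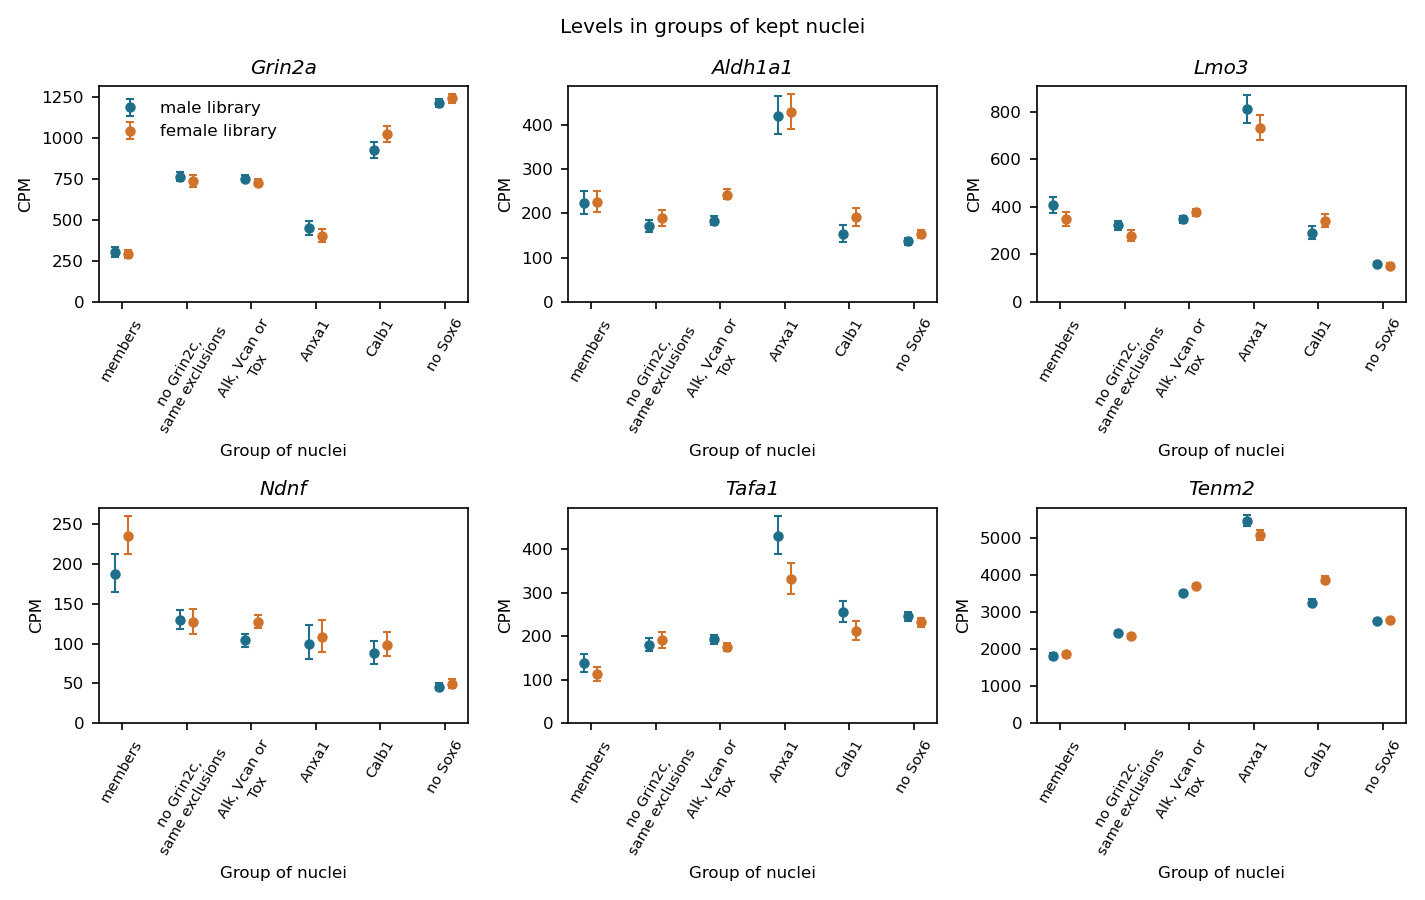
Level in CPM (y axis) of 6 genes in 6 groups of kept nuclei (x axis; all but the last have Sox6), with points for the male and female library and bars for 95% Poisson intervals. Grin2a is at 303 and 291 CPM in the members and next lowest in Anxa1 nuclei, from which the members did not pass the depth-matched test for it (-0.16 ± 0.10), and Ndnf is highest in the members, whereas Aldh1a1, Lmo3, Tafa1 and Tenm2 are highest in Anxa1 nuclei.

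Within the members Aldh1a1 was found together with Tafa1 in 70 male and 66 female nuclei. These were 1.78 (1.39 to 2.25) and 1.76 (1.36 to 2.24) times the number given by separate frequencies at equal depth. With Lmo3 it was found in 104 and 120, a ratio of 1.42 (1.16 to 1.72) and 1.44 (1.19 to 1.72). The intervals of these and the earlier co-detection ratios cover counting error within a library only, and uniformity of the members was not tested. With Ndnf the ratio was 0.92 (0.70 to 1.19) and 0.93 (0.74 to 1.15), and with Grin2a 0.83 (0.60 to 1.11) and 0.78 (0.58 to 1.03), intervals that include 1. Members with Tacr3 and no Aldh1a1 numbered 20 in the male library and 37 in the female, 6.08% and 9.002% of the members, and those with Tmem163 numbered 9 (2.74%) and 10 (2.43%). Grin2a and Tenm2 were at lower levels in members with 2 or more Grin2c UMIs than in those with 1, as given above, with no test, and Aldh1a1 was at 212 CPM (167 to 267) and 228 CPM (198 to 261) in the male library and at 227 CPM (193 to 265) and 225 CPM (196 to 258) in the female.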

How the data were processed

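GFP+ nuclei of the ventral midbrain were profiled with droplet-based 3' single-nucleus RNA-seq in 2 libraries. For alignment to mm10 the authors used Cell Ranger 6.0.0 (per the submitters' processing notes, which also name Seurat 4.0.2), intronic reads included. They deposited raw UMI counts, which are whole numbers for each gene in each nucleus. Here nuclei with at least 500 features were kept, 6556 male and 5509 female of 12151 barcodes. No doublets were removed here. Members and gene lists were chosen with earlier results of these data known.

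Each member was paired within its library with comparison nuclei nearest in UMIs by optimal assignment, pairs over 20% apart being dropped: 2 per member for the first pair of comparisons, 1 for the others. Counts were summed per group and library and tested with edgeR 4.0.16 (limma 3.58.1, R 4.3.3; TMM, filterByExpr, quasi-likelihood, library as block), with Benjamini-Hochberg adjustment over all tested genes. The block pairs sums of the same library, since the same animals gave both groups. A level is the CPM of summed counts, and the differences of a library alone are of log2(CPM + 1). Genes were named as the 10 highest and 10 lowest log2 fold changes among called genes against the remaining Sox6 nuclei (same direction in both libraries, at least 20 CPM in a group), all list genes called there, and marker genes whether called or not; further genes were picked with their values in view, and some listed genes are not reported here. Co-detection compared nuclei with both genes with the number expected within 10 depth classes of a library. On simulated counts of 10970 genes for the comparison with the remaining Sox6 nuclei, 91% of 2-fold and 55% of 1.5-fold changes were called, and 3.95% of calls were unchanged genes. These 3 shares were 88%, 44% and 7.69% for Grin2c-negative nuclei (10280 genes simulated), 92%, 45% and 6.16% for Anxa1 nuclei (7671 genes) and 81%, 41% and 2.4% for nuclei with Alk, Vcan or Tox (9945 genes). The planted changes, 200 per comparison, were limited to genes of higher counts, and each gene was drawn with the spread typical of its level. The shares thus do not extend to genes of low counts or of larger spread, and are not error rates of the real calls. Python 3.11.15, numpy 2.4.6, scipy 1.17.1, pandas 2.3.3 and matplotlib 3.10.9 were used, and gene positions come from GENCODE vM21. Alternatives covered DESeq2 1.42.0, scaling, the filter on low counts, no block, each library left out, matching, thinning to 1000 UMIs, minimums of 1000 features and of 2 Grin2c UMIs, and the 5% deepest nuclei.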

Additional observations from a re-analysis of the deposited data

Results flagged for a closer look

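Against Sox6 nuclei with Alk, Vcan or Tox and no Anxa1, Grm7 passed the edgeR test at a log2 fold change of -0.26 although the libraries moved in opposite directions: it was at 297 CPM in the male members against 459 CPM, and at 344 CPM in the female members against 327 CPM. Of the 475 genes called there, 473 had the same direction in both libraries. The other was Alcam, an adhesion gene, at 117 CPM in the male members against 118 CPM and at 231 CPM in the female members against 138 CPM (log2 fold change 0.45). The difference between the libraries was not tested for either gene.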

How the results depend on the processing

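DESeq2 called 98 genes against the remaining Sox6 nuclei, 62 against Grin2c-negative nuclei, 59 against Anxa1 nuclei and 104 against nuclei with Alk, Vcan or Tox, all of them also called by edgeR in the same direction. Without the replicate block these counts were 12, 12, 37 and 59, since library differences then enter the error; Grin2a, Tenm2, Ntng1 and Gabrg3 were among the 12 of the first comparison. With members limited to 2 or more Grin2c UMIs, 236 nuclei, the counts were 191, 229 and 259 in the comparisons other than that with Anxa1 nuclei, and after thinning to 1000 UMIs 278 and 205 in the first pair. Without depth matching 453 genes were called against Anxa1 nuclei. Against nuclei with Alk, Vcan or Tox, 298 genes were called with library size alone and 153 without the filter on low counts. Higher genes made up 36.9%, 39.0%, 46.7% and 36.4% of the main edgeR calls in the 4 comparisons. The shares were 31.6%, 40.3%, 28.8% and 39.4% with DESeq2 and 8.33%, 8.33%, 27.0% and 22.0% without the block. Leaving out nuclei with Fdxr, chosen after seeing the data, gave 194 calls against Grin2c-negative nuclei, and a robust edgeR fit, also added then, gave 469, 350, 277 and 473 calls, the 277 against Anxa1 nuclei. With a library left out no test can be had. The 83 genes that the naming rule took from the comparison with the remaining Sox6 nuclei had the same direction in each library. The rule required this of the 10 highest and 10 lowest, and the others were picked as called in these same libraries. It is therefore no check of their stability. Genes described there but not called did not all keep their direction, for instance Aldh1a1. Against nuclei with Alk, Vcan or Tox, the difference of Grm7 ranged from -0.63 without the female library to 0.074 without the male. Co-detection ratios after thinning were 0.45 and 0.53 for Grin2a, 0.34 and 0.34 for Calb1, and in the female library 1.30 for Aldh1a1 and 0.82 for Anxa1. With 2 Grin2c UMIs they were 0.60 and 0.62 for Grin2a and, in the male library, 0.37 for Calb1 and 0.33 for Tox. The cause of these shifts was not tested. Genes below 20 CPM in every group were kept out of the 10 highest and 10 lowest by the naming rule, and how far depth limits them was not tested.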
